A study of Mus musculus with 18 samples.

Results

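The RNA that an antibody against N6-methyladenosine (m6A) retained from wild-type haematopoietic stem cells (HSCs) was set against the input RNA of the same kind of cells, gene by gene. The compared genes were those with a mean of at least 10 RPKM (reads divided by gene length in kilobases and by library size in M, where M stands for 1e6) over the 6 columns of the wild-type and Mettl3-deficient tables, which gave 6295 of 23038 genes. Of these, 6145 were protein-coding in the RefSeq annotation, 81 were long noncoding RNAs, 22 small nucleolar RNAs and 11 microRNA genes. The measure is log2((m6A-tagged RPKM + 1)/(input RPKM + 1)), called the log2 ratio below, and a positive value means more in m6A-tagged RNA. The added 1 RPKM understates the difference of genes with low values.

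The m6A-tagged and the input group held 3 libraries each, all from C57BL/6 mice with the genotype label wild-type. Mice had received 10 µg pIpC, an interferon inducer, in 5 injections, and were examined 10 days after the last one. The same injections were given to the Mettl3-deficient mice, where they switch on Mx1-cre and delete the floxed Mettl3 gene, so every group in the series carries this treatment. Cells were sorted from bone marrow as Lineage- Sca1+ cKit+ CD150+ CD48-, 3000 per sample. Their polyadenylated RNA was incubated with 1.25 µg antibody, the washes were kept as the unbound fraction and the retained RNA was released with free m6A nucleotide. Each fraction was amplified by Smart-seq2 and sequenced in read pairs of 150 bases, and the series' design text calls the samples biological replicates. No fragmentation of the RNA is described, so a value gives no position of a methylated base within the gene. Each group is deposited as 1 column, the mean of its 3 libraries. No p-value can be had from 1 column per group, and the differences below have no replicate check except where reads of single libraries are given.

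m6A is the most common internal modification of eukaryotic mRNA. It is placed mainly by a nuclear complex of Mettl3 and Mettl14 and read by YTH-domain proteins such as Ythdf2, which speeds the decay of marked transcripts. Short-lived regulatory mRNAs often carry it, while housekeeping mRNAs such as those of ribosomal proteins are known for carrying little. The antibody fraction of an RNA immunoprecipitation is relative: what is gained by some genes is lost by others, because every library is scaled to its own total.

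The effective depth recovered from the values was 35.0, 33.7 and 30.3 M reads in the m6A-tagged libraries and 37.2, 33.4 and 28.3 M in the input libraries. All 14 HSC markers were found, 12 of them at 10 RPKM or more in input, and their levels summed to 1177 RPKM in both m6A-tagged and input RNA. The 9 granulocyte and monocyte markers summed to 5779.6 RPKM in m6A-tagged and 4979 RPKM in input RNA, with S100a8 the highest in input, and Prg2, an eosinophil granule protein, was at 664 and 655 RPKM. Of 5 T cell markers 4 were under 1 RPKM in input, among them Cd3e and Cd8a at 0.0214 and 0.00981 RPKM. The defining B cell marker Ms4a1 was at 0.318 RPKM, and Cdh5, Col1a1, Cxcl12 and Lepr of endothelial and stromal cells were all under 1 RPKM. The part of granulocyte RNA in the results below was not tested. In bulk samples fewer cells of a type and less RNA per cell cannot be told apart.

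Most genes differed little between the fractions. The log2 ratio had a median of 0.06 and a standard deviation of 0.60 across the 6295 genes, and 67.4% of genes lay within 1.5-fold. At 2-fold, 232 genes were higher in m6A-tagged than in input RNA (3.69% of those compared) and 329 were lower (5.23%). At 4-fold the counts were 2 higher and 15 lower. Of the genes past 2-fold, 41.4% were higher, a share of 30.9% when columns were scaled by their median ratio and 23.4% when scaled by their upper quartile. The share was 50.6% (318 higher, 311 lower) when the minimum was set on the wild-type m6A-tagged and input columns alone, and 52.2% with no minimum, so the excess of lower genes depends on these choices. Over all 6295 genes 53.4% lay above 0.

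**Figure D1:**
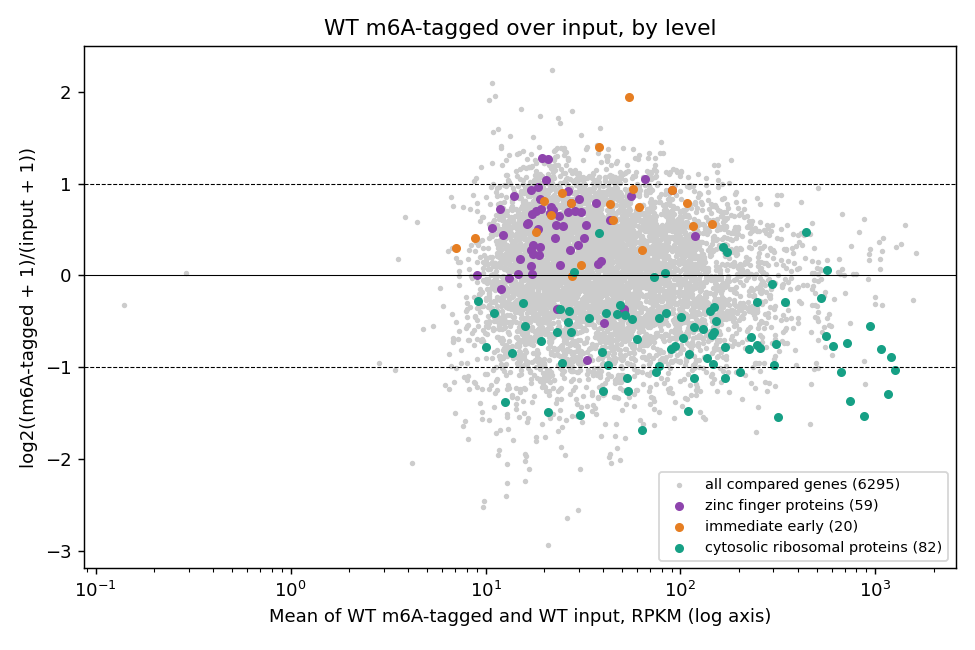
Each point is 1 of 6295 genes, with its mean level in the m6A-tagged and input columns of wild-type HSCs (RPKM, log axis) against its log2 ratio; dashed lines mark 2-fold. The 82 cytosolic ribosomal protein genes lie mostly below 0 at all levels, and the 59 zinc finger and 20 immediate early genes mostly above it.

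The genes with the highest ratio were mostly of low level in input, which a choice by ratio favours because input is its denominator. The m6A-tagged columns also count towards the minimum of 10 RPKM. B3galt4, for example, had 18.4 RPKM in m6A-tagged, 4.00 RPKM in input and a mean of 10.5 RPKM over the 6 columns. The 25 highest had a median of 35.7 RPKM in m6A-tagged and 10.5 RPKM in input RNA, and a median of 1.83 RPKM in the unbound fraction. Ranks 1 to 10 ran from Pex11a, a peroxisome division factor, at a log2 ratio of 2.24 to Elp6, an Elongator subunit, at 1.66. Rtp4, an interferon-induced chaperone of membrane receptors (chromosome 16, 23520219 to 23614222), followed with 58.9 RPKM in m6A-tagged and 18.7 RPKM in input RNA, a log2 ratio of 1.60. Cmpk2, a mitochondrial nucleotide kinase that interferon also induces, had 35.7 RPKM in m6A-tagged against 13.0 RPKM in input RNA. Thap7, a histone tail-binding protein of the THAP family, was the most abundant of the 25, at 116 RPKM in m6A-tagged and 42.0 RPKM in input RNA. Poli, a translesion DNA polymerase, had 54.5 RPKM in m6A-tagged and 19.7 RPKM in input RNA.

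Other kinds of gene stood among these 25 as well. Mitochondrial expression genes were represented by Mtres1, a factor that protects mitochondrial transcription under stress (46.3 RPKM in m6A-tagged, 15.4 RPKM in input), and by Ears2, the mitochondrial glutamyl-tRNA synthetase (27.8 and 9.91 RPKM). Stress and feedback genes were represented by Gadd45g, a stress-induced growth regulator (55.7 RPKM in m6A-tagged, 20.4 RPKM in input), and by Sertad1, a co-regulator of E2F transcription (87.2 and 22.0 RPKM). The F-box and BTB adaptor genes Fbxo17 and Btbd6 had log2 ratios of 1.52 and 1.51. Lsr, a lipoprotein receptor and tricellular junction protein, stood at 1.39, as did the carboxypeptidase-like gene Cpxm1.

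The genes with the lowest ratio lay further from 0 than those with the highest, reaching a log2 ratio of -2.93. The 25 lowest had a median of 6.00 RPKM in m6A-tagged and 27.8 RPKM in input RNA, and 48.3 RPKM in the unbound fraction. Ranks 1 to 10 from the bottom ran from Cenpv, a centromere protein, to Stk19 at -2.11. Mgmt, which repairs alkylated guanine in DNA (chromosome 7), had 16.5 RPKM in m6A-tagged and 71.3 RPKM in input RNA. Mad2l2, a subunit of DNA polymerase zeta and of shieldin, had 18.9 RPKM in m6A-tagged against 79.0 RPKM in input RNA. Immp2l and Chchd6, a protease and a cristae organiser of the inner mitochondrial membrane, were at 5.74 and 16.9 RPKM in m6A-tagged RNA, against 26.3 and 69.5 RPKM in input RNA. Alyref, an adaptor that hands spliced mRNA to the export receptor, stood at 19.6 RPKM in m6A-tagged and 75.3 RPKM in input RNA, and Yrdc, needed for a tRNA modification, at 17.3 and 69.6 RPKM.

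The unbound fraction is given beside both sets past 2-fold as a description. It is 1 of the 6 columns behind the minimum of 10 RPKM, so it helped to choose the genes: Lmo1, for example, had 2.17 RPKM in m6A-tagged, 17.2 RPKM in input and 48.3 RPKM in unbound RNA. The 232 higher genes had a median of 40.1 RPKM in m6A-tagged, 17.8 RPKM in input and 4.70 RPKM in unbound RNA. The 329 lower genes had 17.9, 46.2 and 72.1 RPKM in the same fractions. Across all 6295 genes the medians were 38.1 RPKM in m6A-tagged, 35.2 RPKM in input and 29.8 RPKM in unbound RNA.

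In Mettl3-deficient cells the same comparison gave 205 of the 232 genes a log2 ratio above 0, with a median of 0.41, where 3872 of all 6295 genes lay above 0 and their median was 0.12. Of the 329 lower genes 140 had a Mettl3-deficient log2 ratio above 0, and the median was -0.13. These values are printed side by side, and the genes were chosen for their wild-type ratio.

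Abundant transcripts are described separately. Among 1080 genes with at least 100 RPKM in the mean of m6A-tagged and input RNA, 11 were 2-fold higher (1.0%) and 56 were 2-fold lower (5.2%), and the standard deviation was 0.53. Gng11, a G protein gamma subunit of platelets and endothelium (chromosome 6, 4003987 to 4008445), led with 256 RPKM in m6A-tagged and 107 RPKM in input RNA. Fam32a followed at 217 and 93.6 RPKM. Coa3, an assembly factor of cytochrome c oxidase, had 208 RPKM in m6A-tagged and 89.9 RPKM in input RNA. Next came the vesicle protein Vamp5, the U3 ribonucleoprotein subunit Imp3, the mRNA export cofactor Nxt1, the interferon-induced GTPase Ifi47, the COP9 signalosome subunit Cops8, Lst1, the nucleosome-binding Hmgn3 and Rp9. The log2 ratios of these 8 genes lay between 1.01 and 1.13.

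At the other end of the abundant genes, Cd81, a tetraspanin of the cell surface (chromosome 7, 143052750 to 143067930), had 114 RPKM in m6A-tagged and 373 RPKM in input RNA, a log2 ratio of -1.70. Ldha, which makes lactate from pyruvate, had 225 RPKM in m6A-tagged and 696 RPKM in input RNA. Uba1, the main ubiquitin-activating enzyme, stood at 66.0 and 186 RPKM, and Sqstm1, an autophagy receptor, at 69.1 and 173 RPKM. Prdx2, a peroxidase, had 134 RPKM in m6A-tagged and 365 RPKM in input RNA, Psma2, a subunit of the proteasome core, 117 and 298 RPKM, and Bub3, a spindle checkpoint protein, 59.1 and 151 RPKM. The ribosomal proteins Rps2, Rplp0, Rpl3 and Rps14 were also among the 15 lowest, at log2 ratios of -1.55, -1.54, -1.47 and -1.37.

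**Figure D2:**
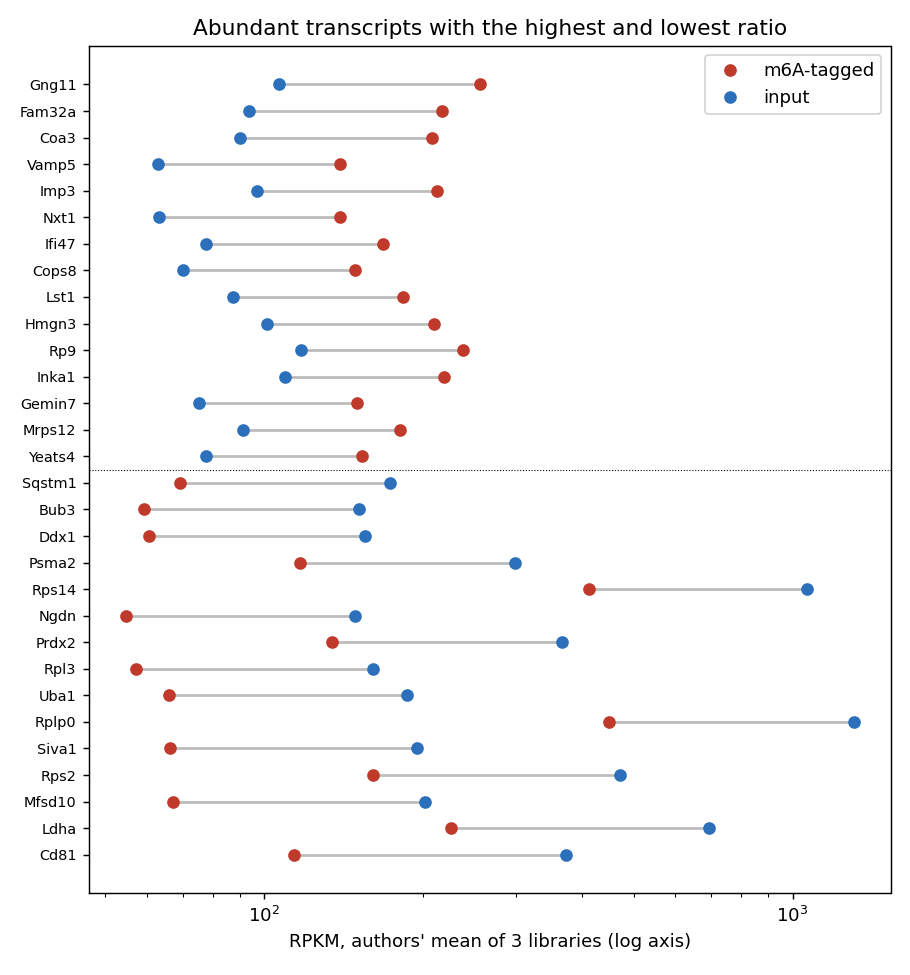
RPKM in m6A-tagged (red) and input RNA (blue) of wild-type HSCs for the 15 genes with the highest (above the dotted line) and the 15 with the lowest ratio among genes of at least 100 RPKM; every point is a deposited mean of 3 libraries, on a logarithmic axis. Gng11 has the widest gap at the top and Cd81 at the bottom.

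The most abundant input transcripts were not a uniform group. Of the 10 highest in input, 5 ribosomal protein genes and Rack1, which sits on the small ribosomal subunit, were lower in m6A-tagged than in input RNA. Rack1 had 537 RPKM in m6A-tagged and 1223 RPKM in input RNA. Eef1a1, the elongation factor that brings tRNA to the ribosome, differed less, at 1419 RPKM in m6A-tagged and 1709 RPKM in input RNA. B2m and H2-D1, the light and a heavy chain of MHC class I, lay slightly above 0, with log2 ratios of 0.25 and 0.35. Actb stood at -0.32.

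Across 5 bins of equal gene number by the mean of both columns, the median log2 ratio was 0.04, 0.13, 0.15, 0.04 and -0.08 going to higher levels, and the standard deviation was 0.65 in the lowest and 0.54 in the highest bin. In the lowest bin 4.1% of genes were 2-fold higher and 6.9% lower, and in the highest 1.3% and 4.9%. Binned by input alone, which is also the denominator of the ratio, the median was lower in each higher bin, at 0.31 in the lowest and -0.21 in the highest.

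Of the 44 gene lists, 41 had at least 5 measured members. Over all 6295 genes 53.4% lay above 0, 3.69% were 2-fold higher and 5.23% were 2-fold lower. No result is drawn from list counts of a few genes past 2-fold. The genes that respond first to signals had the highest median, 0.71 over 20 immediate early and short-lived transcripts, of which 19 lay above 0 and 2 were 2-fold higher, where the median over all 6295 genes was 0.06. Sertad1 and Gadd45g led them, and Junb, an AP-1 subunit, had 75.0 RPKM in m6A-tagged and 38.7 RPKM in input RNA. Fos, its partner, was closer, at 69.4 and 57.0 RPKM, and Mcl1, a survival factor, was at 27.8 RPKM in both. The 9 SOCS and DUSP feedback inhibitors all lay above 0, with a median of 0.49 and 0 past 2-fold. Among them were Socs2 at 25.8 RPKM in m6A-tagged and 14.3 RPKM in input RNA, and Cish at 55.2 and 31.8 RPKM, both brakes on cytokine signalling through STAT5. In Mettl3-deficient cells the median was 0.61 for the immediate early list and 0.37 for the SOCS and DUSP list, where that of all genes was 0.12.

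Zinc finger proteins of the Zfp, Zscan, Zkscan and Zbtb families, most of them DNA-binding repressors, had a median of 0.54. Of 59 genes 52 lay above 0 (88.1%, against 53.4% of all genes), 4 were 2-fold higher and 0 were lower. Over all genes 3.69% were higher and 5.23% lower, so nothing is read from these 2-fold counts. Zfp771 was the most abundant of the leading members, at 89.1 RPKM in m6A-tagged and 42.4 RPKM in input RNA, and Zfp523 was the lowest, at 22.6 and 43.7 RPKM. The median of the list in Mettl3-deficient cells was 0.22, where that of all genes was 0.12.

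Of 19 HSC transcription factors 16 lay above 0 (84.2%, against 53.4% of all genes), with a median of 0.38, and in this list only Gata3 was 2-fold higher and Lmo1 2-fold lower. Mycn had 94.5 RPKM in m6A-tagged and 53.9 RPKM in input RNA, and Nfe2, a megakaryocyte and HSC factor, 389 and 227 RPKM. Myb went the other way, at 66.4 RPKM in m6A-tagged and 108 RPKM in input RNA. Of 18 surface and signalling genes 13 lay above 0 and 0 passed 2-fold. Slamf1, which encodes the sort marker CD150, was at 42.9 RPKM in m6A-tagged and 24.2 RPKM in input RNA. Meis1, a Hox cofactor, had 86.8 RPKM in m6A-tagged and 55.4 RPKM in input RNA, whereas Hoxa9 stood at 14.6 and 14.7 RPKM. The transcription factor list had a median of 0.08 in Mettl3-deficient cells, where that of all genes was 0.12.

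The m6A machinery itself spanned 0. Ythdf2 had 49.4 RPKM in m6A-tagged and 32.4 RPKM in input RNA, and Ythdc1, the nuclear reader, 41.5 and 29.2 RPKM. Mettl3 had 36.1 and 36.4 RPKM. The median over 8 genes was 0.20, with 0 past 2-fold.

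Ribosomal genes split by compartment. Over all 6295 genes 53.4% lay above 0, 3.69% were 2-fold higher and 5.23% lower. Of 82 cytosolic ribosomal protein genes 7 lay above 0, 18 were 2-fold lower and 0 higher, with a median of -0.69. Their levels summed to 13666 RPKM in m6A-tagged and 23195 RPKM in input RNA. Rpl29 was the exception at the top, with 510 RPKM in m6A-tagged and 369 RPKM in input RNA, and Rpl10 was the lowest, at 29.6 and 97.4 RPKM. Ribosomal protein genes have many near-identical pseudogenes, and so has Gapdh, so the authors' counting could split their reads. The 79 mitochondrial ribosomal proteins, made from nuclear genes, had a median of 0.35, with 57 above 0 (72.2%), 1 2-fold higher and 2 2-fold lower. No result is drawn from the 2-fold counts of this list. Mrps12 had 181 RPKM in m6A-tagged and 91.0 RPKM in input RNA and Mrps7 182 and 96.6 RPKM, while Mrpl21 had 21.1 and 54.5 RPKM. In Mettl3-deficient cells the median was -0.99 for the cytosolic and 0.21 for the mitochondrial list, where that of all genes was 0.12.

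The start sites of ribosomal protein genes are known for a pyrimidine tract that begins with C and couples translation to mTOR. RefSeq start sequences (GRCm38.p6) were read for 5100 of the compared genes, and the window from 30 bases before to 50 bases from the start was searched for C followed by at least 7 C or T in a row. It held such a tract for 47 of 60 ribosomal protein genes (78.3%) and for 1023 of 5040 other genes (20.3%), and on the other strand for 13.3% and 24.0%. Among the ribosomal protein genes the median log2 ratio was -0.66 with a tract and -0.75 without. Among the other genes it was 0.04 with a tract and 0.07 without. Stretches of 30 bases are shown for 5 ribosomal protein genes with a tract, those highest in input among the sequences used, to show what the searched run looks like. Capitals mark the tract.
Rpl4: acaagtCTTTCCTTTTCCTgtgggagcagc
Rps9: ccttgtCTCTCTTTgtctcgggcctgagtt
Rps15: cccgtaCTTCCTTTTCCgagtaaccgccaa
Rpl41: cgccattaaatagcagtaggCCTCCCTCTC
Rps2: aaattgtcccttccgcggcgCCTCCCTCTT
These stretches lie in GRCm38.p6 for Rpl4 at chr9:64173364-64173393 on the plus strand, Rps9 at chr7:3704030-3704059 on the plus strand, Rps15 at chr10:80292450-80292479 on the plus strand, Rpl41 at chr10:128549119-128549148 on the minus strand, Rps2 at chr17:24720083-24720112 on the plus strand. The runs lie at different distances from the annotated start, and those of Rpl41 and Rps2 reach the edge of the searched window. For Rps9 and Rps2 the start in the sequence table lies inside the annotated span of the gene and not at its first base. Rps2 had a log2 ratio of -1.55 and Rpl4 of -0.88, while Rpl41, with a tract as well, stood at 0.06.

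Other housekeeping lists lay near or below the median of all genes. Over all genes 53.4% lay above 0, 3.69% were 2-fold higher and 5.23% lower, and nothing is read from the 2-fold counts of these lists. Glycolysis enzymes had a median of -0.40 over 18 genes, 4 above 0 and 2 of them 2-fold lower. Those 2 were Ldha and Gapdh, and Gapdh had 19.1 RPKM in m6A-tagged and 53.7 RPKM in input RNA, while the glucose transporter Slc2a1 lay above 0 at 42.3 and 28.3 RPKM. Of 46 proteasome genes 11 lay above 0 and 3 were 2-fold lower, with a median of -0.23. Psmg1, an assembly chaperone, had 70.6 RPKM in m6A-tagged and 169 RPKM in input RNA. Oxidative phosphorylation genes had a median of -0.16 over 88 genes, with 1 higher and 4 lower. Uqcrc2, a core subunit of complex III, was at 113 RPKM in m6A-tagged and 237 RPKM in input RNA.

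Genes of mRNA metabolism were mixed, and their 2-fold counts are given beside 3.69% higher and 5.23% lower over all genes, with nothing read from them. The 35 mRNA decay genes had a median of -0.22 with 1 higher and 3 lower, but the AU-rich element binding genes Zfp36l2 and Zfp36 stood above 0, at 119 and 34.9 RPKM in m6A-tagged and 61.7 and 19.8 RPKM in input RNA. Xrn2, the nuclear exonuclease that ends transcription, had 30.4 RPKM in m6A-tagged and 69.3 RPKM in input RNA. Among 70 splicing factor genes U2af1, which reads the intron's end, was the single gene past 2-fold, at 4.73 RPKM in m6A-tagged and 16.1 RPKM in input RNA. The nuclear export receptor gene Xpo5 was at 11.1 and 33.5 RPKM.

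Chromatin genes had a median of -0.16 and replication and mitosis genes of -0.12. Nothing is read from their counts past 2-fold, since 3.69% of all genes were higher and 5.23% lower. Of 47 chromatin genes 4 were 2-fold lower and 0 higher, among them Smarcd1 and Smarcd2, subunits of the BAF remodeller, at 9.18 and 39.9 RPKM in m6A-tagged and 25.6 and 102 RPKM in input RNA. Of 48 replication and mitosis genes 4 were lower and 1, the origin recognition subunit gene Orc5, was higher. Cdk4, the kinase of the G1 cyclins, had 284 RPKM in m6A-tagged and 646 RPKM in input RNA. The histones spanned a wide range, with H1f2 at 36.4 and 14.0 RPKM and H2az2 at 72.9 and 167 RPKM in m6A-tagged and input RNA.

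Of the 33 genes in the interferon-stimulated list 22 lay above 0 (66.7%, against 53.4% of all genes) and Rtp4 passed 2-fold, with a median of 0.17. Cmpk2 and Ifi47, described above, are induced by interferon too but are not in this list. The 19 MHC class I genes had a median of 0.31 (-0.91 in Mettl3-deficient cells) and 0 past 2-fold, with H2-Q7 at 198 RPKM in m6A-tagged and 121 RPKM in input RNA. The 21 granulocyte and monocyte genes had a median of 0.27, 17 above 0 and 0 past 2-fold. S100a8 had 1683 RPKM in m6A-tagged and 1148 RPKM in input RNA, whereas Elane, a neutrophil elastase, had 421 and 592 RPKM. In the erythroid list Gata1 was the single gene past 2-fold, at 22.6 RPKM in m6A-tagged and 57.5 RPKM in input RNA, and Klf1, its partner in globin expression, lay the other way at 47.3 and 27.7 RPKM. Lists of membrane traffic held both kinds, with the small GTPase genes Rab13 at 23.4 and 9.12 RPKM and Arl8a at 2.35 and 17.4 RPKM in m6A-tagged and input RNA.

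**Figure D3:**
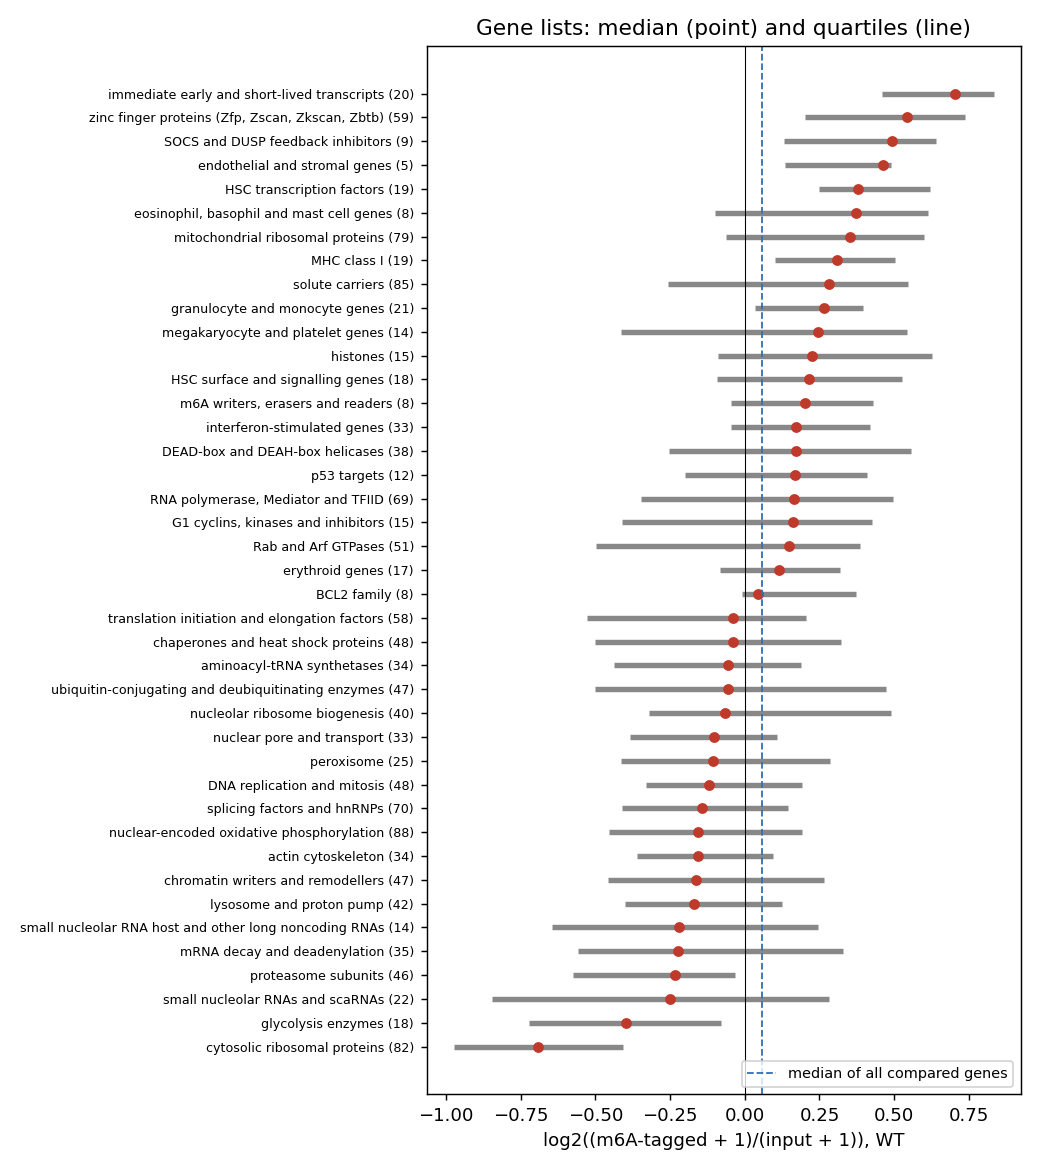
Median log2 ratio (point) and quartiles (line) of each gene list with at least 5 measured genes in wild-type HSCs, with the number of genes in brackets; the dashed line is the median of all 6295 genes, 0.06. Immediate early transcripts lie at the top (0.71) and cytosolic ribosomal proteins at the bottom (-0.69).

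Genes that occupy little genome lay higher, though not in every list. In bins of equal number by genomic span, the distance from a gene's start to its end including introns, the median log2 ratio was 0.20 for the shortest and -0.01 for the longest bin. Ranges of span were then chosen after the values had been seen, for protein-coding genes without the ribosomal protein list. The genes left out include short ones that lay lower. Cytosolic ribosomal protein genes had a median span of 3138 bases and a median log2 ratio of -0.69. Small nucleolar RNAs had 72.5 bases and -0.25. Up to 1.5 kb the median was 0.41 over 98 genes, with 80.6% above 0, 11 genes 2-fold higher (11.2%) and 1 lower. From 1.5 to 2.5 kb it was 0.49 over 194 genes, with 22 higher (11.3%) and 3 lower. From 2.5 to 4 kb it was 0.23 over 351 genes and from 4 to 8 kb 0.15 over 925 genes. Over 8 kb it was 0.01 over 4496 genes, with 117 higher (2.6%) and 246 lower (5.5%). The groups overlapped widely, with a standard deviation of 0.51 to 0.64 within ranges.

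Genes up to 2.5 kb and over 8 kb were also compared within levels. Among genes of 10 to 30 RPKM in the mean of both columns, those up to 2.5 kb had a median of 0.61 over 82 genes and those over 8 kb 0.06 over 1904 genes. From 30 to 100 RPKM the medians were 0.57 over 116 genes and 0.04 over 1907 genes, and from 100 RPKM 0.28 over 85 genes and -0.13 over 600 genes. In Mettl3-deficient cells, which have their own m6A-tagged and input columns, the medians in the 5 ranges of span were 0.41, 0.42, 0.24, 0.22 and 0.08, against 0.41, 0.49, 0.23, 0.15 and 0.01 in wild-type cells. What in the RNA or its handling goes with the span was not tested. Exon and transcript structure was not used here.

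**Figure D4:**
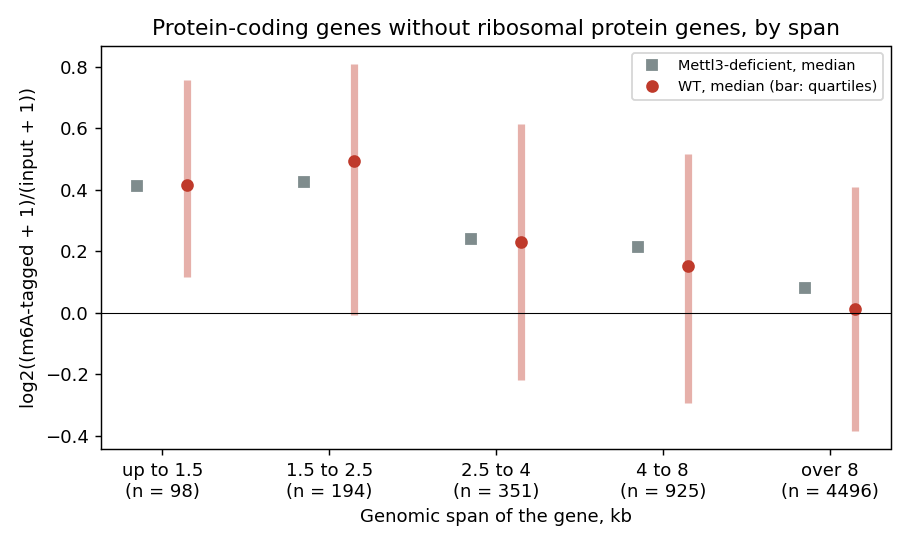
Median log2 ratio of protein-coding genes without ribosomal protein genes in 5 ranges of genomic span, in Mettl3-deficient (squares) and wild-type HSCs (circles, with bars from the lower to the upper quartile). Both medians are above 0.4 up to 2.5 kb, and at 0.08 and 0.01 over 8 kb.

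The compact genes with the highest ratio, named by rank after the values had been seen, included Pard6a, a cell polarity scaffold, at 37.2 RPKM in m6A-tagged and 13.6 RPKM in input RNA, and Fkbpl at 17.8 and 6.20 RPKM. Rpp25l and Pop7, both subunits of the RNase P and MRP family, had 83.1 and 106 RPKM in m6A-tagged and 33.5 and 43.0 RPKM in input RNA. The lowest compact gene was Npm3, a nucleolar chaperone, at 8.62 RPKM in m6A-tagged and 31.6 RPKM in input RNA, followed by Tmem179b at 51.6 and 136 RPKM.

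Reads of single libraries could be solved from the pooled values for 36 compared genes, which gives the only view of the spread between libraries among them. They were 12 protein-coding genes, 11 small nucleolar RNAs, 8 microRNA genes, 2 long noncoding RNAs, 1 pseudogene and 2 without a RefSeq entry. They are short or weakly counted, so they do not stand for all genes. The gene lengths implied by their values ran from 24 bases for Rpl11 to 2365 bases, with 84 for Tgoln2 and 180 for Cenpw, so some RPKM rest on a small part of a gene; the length cancels in the ratio apart from the added 1 RPKM. Libraries are given by decreasing depth, since the values do not show which replicate each one is, and counting error alone limits the precision of any value. In reads per M, the lowest m6A-tagged library was higher than the highest input library for 2 genes (5.6%). The highest m6A-tagged library was below the lowest input library for 7 (19.4%), and the fractions overlapped for 27. Separation of libraries is another measure than the 2-fold shares of all compared genes, 3.69% higher and 5.23% lower. Libraries this few can also separate by chance. How often they do was not tested, so nothing is read from either count. Genes said below to stand apart are described by their reads only. The median standard deviation of log2 reads per M was 0.68 in m6A-tagged and 0.36 in input libraries, and it was larger in m6A-tagged RNA for 28 of 36 genes. A tagged library had 0 reads for 7 of the genes, and an input library for 1.

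Of the 3 solved genes that were 2-fold higher, Snord37 alone stood apart in every library. This small nucleolar RNA (chromosome 10, 81178961 to 81179013) lies inside Eef2, which had a log2 ratio of 0.29. Snord37 had 117, 34 and 75 reads in the m6A-tagged libraries and 21, 27 and 12 reads in the input libraries. Mir1896 had 238, 18 and 46 reads in the m6A-tagged libraries and 29, 45 and 31 reads in the input libraries, so its log2 ratio of 1.37 rests on 1 library. Its m6A-tagged libraries averaged 2.95 reads per M, or 1.03 without that library, against 1.07 in input. Ramp2, which pairs with the calcitonin receptor-like receptor, had 122, 182 and 265 reads in the m6A-tagged and 15, 205 and 42 reads in the input libraries, and here an input library overlapped. Mir1901, inside Cables1, was under 2-fold but apart, at 143, 117 and 86 reads in the m6A-tagged and 72, 37 and 71 reads in the input libraries.

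The 3 solved genes that were 2-fold lower all stood apart. Snora70, which lies inside Rpl10, had 88, 61 and 0 reads in the m6A-tagged libraries and 173, 153 and 152 reads in the input libraries, and its log2 ratio of -1.65 was close to that of Rpl10, -1.68. Snord1b had 9, 17 and 24 reads in the m6A-tagged and 59, 34 and 72 reads in the input libraries, with its host Snhg16 at -1.21. Reads of a small nucleolar RNA and of its host transcript cannot be told apart in these counts. Mrpl23, a mitochondrial ribosomal protein, had 51, 97 and 71 reads in the m6A-tagged and 229, 212 and 135 reads in the input libraries. Cox7c, a subunit of cytochrome c oxidase, stood apart at a log2 ratio of only -0.70, with 80, 69 and 82 reads in the m6A-tagged and 172, 146 and 94 reads in the input libraries. Mt2, a metallothionein, varied widely within both fractions, with 313, 602 and 23 reads in the m6A-tagged and 575, 101 and 148 reads in the input libraries and a log2 ratio of 0.20.

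**Figure D5:**
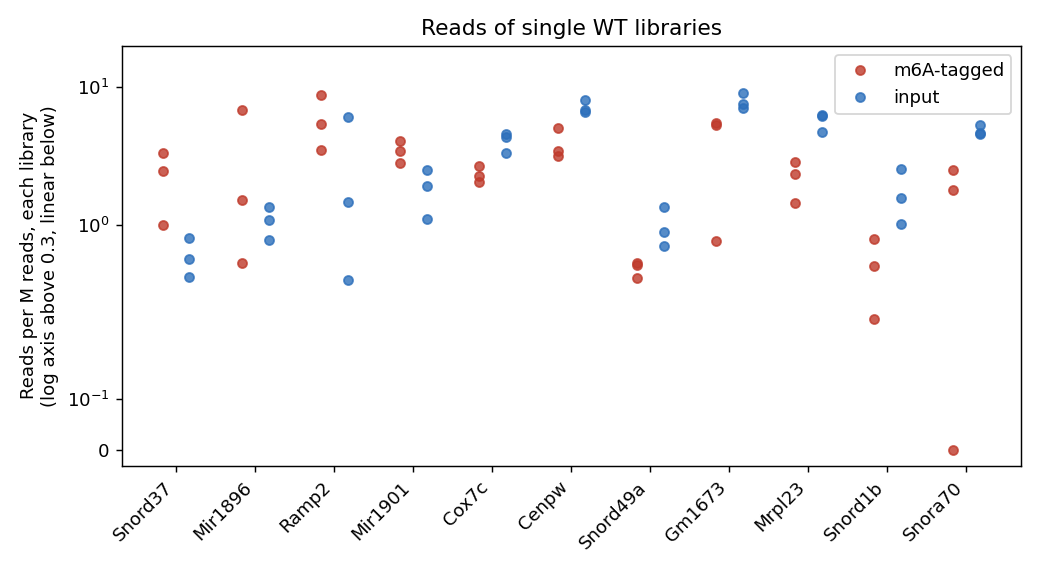
Reads per M reads in each of the 3 m6A-tagged (red, left) and 3 input libraries (blue, right) of wild-type HSCs, for the solved genes whose fractions did not overlap or whose pooled values differed 2-fold; the axis is logarithmic above 0.3 and linear below. Snord37 and Mir1901 lie higher in every m6A-tagged library, Mir1896 and Ramp2 overlap, and the 7 genes from Cox7c to Snora70 lie lower in every m6A-tagged library.

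Which transcripts the reads over microRNA genes come from was not tested. Of the 11 compared, 8 had a hairpin read from RefSeq (GRCm38.p6) here, and their log2 ratios ran from 1.37 to -0.61. The letters GGACU, the best known core of the m6A motif, were in 1 of these 8 hairpins, that of Mir1896, and in 82 of all 1005 hairpins (8.2%), on the transcript strand; the reverse complement AGUCC was in 6.4%. The highest and the lowest hairpin are shown to compare them, with GGACU in capitals.
Mir1896: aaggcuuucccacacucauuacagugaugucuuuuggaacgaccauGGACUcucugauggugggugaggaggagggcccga
Mir682: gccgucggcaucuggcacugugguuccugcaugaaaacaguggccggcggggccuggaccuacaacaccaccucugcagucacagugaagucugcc
The hairpins lie at chr13:21445160-21445240 on the plus strand (Mir1896) and chr13:75645046-75645141 on the plus strand (Mir682). Mir1896 had 36.8 RPKM in m6A-tagged and 13.6 RPKM in input RNA, and Mir682 had 419 and 641 RPKM. The Mir1896 value rests on 1 library, as given above. A match in these letters is no measured site.

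At the border of the comparison, Topbp1, Tgtp1 and Tbc1d22b lay just inside the minimum of 10 RPKM, with log2 ratios of -0.48, 0.64 and 0.53. The genes 1700113A16Rik, Cpne8 and Pom121 lay just outside it, at 0.24, -0.10 and -0.04.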

How the data were processed

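The authors deposited RPKM values in 2 tables, 1 per genotype, with 1 column per fraction, per the file headers. The submitters' processing notes name the mm10 build and the tools Picard and edgeR, without their roles; aligner and counting program: not given in the sources used here. Tested on the values, a deposited column equals the average over 3 libraries of RPKM computed after 1 read was added to each gene. Tables were joined on gene ID, and 11 lines without values were dropped. Of 23038 IDs, 22959 matched RefSeq (GRCm38.p6), which gave symbols, spans and sequences. No test was run. Called means a 2-fold difference after adding 1 RPKM. Reads of single libraries were solved where exactly 1 set of whole reads gave the value within its rounding, a step checked on simulated data. Members and the 44 gene lists were chosen with earlier results of these data known. Named genes are the 25 highest and 25 lowest ratios, the 15 highest and lowest of at least 100 RPKM, the 10 highest in input, 3 highest and 3 lowest per list, and 3 on each side of the minimum. Markers, solved genes and compact genes are named besides. Alternatives changed the added value, minimum, scaling, fold and bins. Python 3.11.15, pandas 2.3.3 and numpy 2.4.6 were used.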

Additional observations from a re-analysis of the deposited data

How the results depend on the processing

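The added value, the minimum, the scaling and the fold were each changed alone. The counts of 2-fold higher and 2-fold lower genes, 232 and 329, became 114 and 213 with 5 RPKM added, 800 and 732 with no minimum and 42 and 155 with a minimum of 50 RPKM. They became 1084 and 971 at 1.5-fold and 12 and 49 at 3-fold, and upper-quartile scaling gave 138 higher and 451 lower. With a minimum over the m6A-tagged and input columns of wild-type cells they were 318 and 311, each within 1.5 times, but the excess of lower genes was gone. Median-ratio scaling gave 175 and 392, and 0.1 RPKM added 263 and 364. Under neither scaling did a list with a median of at least 0.2 in size change sign. With no minimum the medians of mRNA decay, small nucleolar RNA host, solute carrier and endothelial genes were 0.049, 0.092, -0.00012 and -4.9e-05, and with a minimum of 50 RPKM those of histone, small nucleolar RNA host and megakaryocyte genes were -0.17, 0.17 and -0.28. The minimum over both wild-type columns put the host genes at 0.043. These settings change which members are measured. With 10 bins by span the median was 0.26 in the shortest and 0.00 in the longest. No paired analysis was possible because each group is deposited as 1 pooled column, and for the same reason no replicate was left out. Depth limits the low genes most.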

Other observations

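The first transcribed base, read from RefSeq starts, went with little difference in the log2 ratio. The median was 0.10 for genes that start with A, 0.06 for C, 0.05 for G and 0.08 for T, over 1374, 766, 2426 and 474 genes without the ribosomal protein list, and the standard deviation within each was 0.56 to 0.61. Long noncoding RNAs, 81 in number, had a median of 0.11, with 3 of them 2-fold higher and 5 lower in m6A-tagged RNA, near the 3.69% and 5.23% of all genes. Of 25 transcribed pseudogenes 4 were 2-fold lower and 0 higher, with a median of 0.02, and nothing is read from counts this small.

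Genes with a mean of 60 to 150 reads per library and no read in at least 1 column, compared or not, were patchier in m6A-tagged RNA. At least 90% of the reads came from 1 library for 68.3% of 303 genes in m6A-tagged and 15.6% of 340 genes in input RNA. This choice of genes favours patchy detection.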
